A study of Mus musculus and Homo sapiens with 24 samples.

Results

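The 10 genes described here are the MEF2 transcription factors (MEF2A, MEF2B, MEF2C and MEF2D) and 6 regulators that work with them or beside them in muscle: SMYD1, VGLL2, HDAC4, HDAC5, HDAC9 and SMARCD3. They were chosen by name, and all 10 were found both among the 56748 genes of the mouse table and among the 58735 genes of the human table. In each line 9 of the 10 passed the filter on low counts, and MEF2B did not.

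Their polyadenylated RNA was counted in myoblast lines that were followed through differentiation. C2C12 is a mouse skeletal myoblast line, sampled at days 0, 1 and 6, and LHCN-M2 is a human skeletal myoblast line immortalised with TERT and CDK4, sampled at days 0, 1 and 12. Each day of each line is represented by 4 libraries, 24 in all, and every group carries the genotype label control; the labels name no agent, medium or transgene and give the days without saying what was done between them. Each line stands for the differentiation of 1 established line and not of muscle in an animal, and no label ties the 4 libraries of a day to separate cultures. The p-values therefore rest on library-to-library spread alone, part of which may be technical.

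MEF2 proteins are MADS-box transcription factors that bind an A and T rich element in the promoters and enhancers of muscle genes and work together with the MyoD family of myogenic factors. Class IIa histone deacetylases (HDAC4, HDAC5, HDAC7 and HDAC9) bind MEF2 and repress its targets until calcium-dependent kinases phosphorylate them and they leave the nucleus. SMYD1 is a muscle-specific methyltransferase needed for sarcomere assembly and a known MEF2 target, VGLL2 is a muscle cofactor of the TEAD transcription factors, and SMARCD3 (BAF60C) is the SWI/SNF chromatin remodelling subunit that joins MyoD at muscle genes. SMARCD3 and VGLL2 are also expressed outside skeletal muscle.

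Promoters are shown for 6 members as examples, with 1 window per gene. Their mRNA levels moved over the days, and the windows differ in matches to MEF2, E-box and TEAD motifs. Smarcd3, Hdac4 and Mef2d also moved and are not printed. The RefSeq promoter table (GRCm38.p6) held 13 start sites for all 10 mouse members. Each sequence is printed on the strand of its gene, 5′ to 3′, from 250 bases before the start site to 30 bases into the transcript. Capitals mark the MEF2 motif, the E-box CANNTG, and the TEAD motif GGAATG or its reverse complement CATTCC. The MEF2 and E-box patterns read the same on both strands. CANNTG is the general E-box pattern that includes the sites of MyoD family proteins, and not every match is such a site.
Mef2a (chr7:67372829-67373108, minus strand): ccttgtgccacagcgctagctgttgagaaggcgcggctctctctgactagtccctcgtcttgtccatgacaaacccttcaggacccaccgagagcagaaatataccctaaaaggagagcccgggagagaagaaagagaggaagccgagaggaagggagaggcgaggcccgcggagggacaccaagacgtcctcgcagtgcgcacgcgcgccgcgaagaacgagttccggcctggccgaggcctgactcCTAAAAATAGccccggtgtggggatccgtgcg
Mef2c (chr13:83503784-83504063, plus strand): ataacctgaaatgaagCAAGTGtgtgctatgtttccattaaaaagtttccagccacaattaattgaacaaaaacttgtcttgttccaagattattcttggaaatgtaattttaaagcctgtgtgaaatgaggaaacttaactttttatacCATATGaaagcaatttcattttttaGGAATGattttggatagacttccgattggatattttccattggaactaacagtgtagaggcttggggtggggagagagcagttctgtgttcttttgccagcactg
Smyd1 (chr6:71262252-71262531, minus strand): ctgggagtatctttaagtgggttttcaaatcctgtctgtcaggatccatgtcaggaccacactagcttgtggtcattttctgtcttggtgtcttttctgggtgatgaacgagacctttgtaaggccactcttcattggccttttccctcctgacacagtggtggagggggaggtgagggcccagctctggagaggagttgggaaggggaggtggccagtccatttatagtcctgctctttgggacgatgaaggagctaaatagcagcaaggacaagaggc
Vgll2 (chr10:52022252-52022531, plus strand): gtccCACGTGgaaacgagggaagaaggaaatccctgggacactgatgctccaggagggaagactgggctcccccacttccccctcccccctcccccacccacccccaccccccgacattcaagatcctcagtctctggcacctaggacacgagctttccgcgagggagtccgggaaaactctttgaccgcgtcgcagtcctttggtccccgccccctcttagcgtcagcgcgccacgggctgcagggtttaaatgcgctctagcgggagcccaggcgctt
Hdac5 (chr11:102230143-102230422, minus strand): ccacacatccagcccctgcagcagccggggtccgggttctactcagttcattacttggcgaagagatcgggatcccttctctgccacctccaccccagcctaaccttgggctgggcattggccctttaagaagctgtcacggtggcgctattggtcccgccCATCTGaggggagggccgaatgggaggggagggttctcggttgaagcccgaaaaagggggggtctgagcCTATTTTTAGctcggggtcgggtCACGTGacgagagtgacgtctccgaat
Hdac9 (chr12:34528860-34529139, minus strand): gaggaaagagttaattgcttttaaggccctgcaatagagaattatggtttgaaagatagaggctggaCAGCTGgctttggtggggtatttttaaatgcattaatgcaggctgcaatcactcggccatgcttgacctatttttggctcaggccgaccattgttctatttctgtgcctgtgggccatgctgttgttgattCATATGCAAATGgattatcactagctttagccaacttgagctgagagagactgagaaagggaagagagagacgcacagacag

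A MEF2 motif was present in 2 of the 13 windows. In Mef2a it began at position -2 from the start site, and in Hdac5 at position -20. Of all 32851 windows of the same length in the table, 3.06% held this motif. An E-box was found in 8 of the 13 windows, from 6 genes, against 70.1% of all windows. The CAGCTG form of the E-box occurred in 3 windows, both of Hdac9 and that of Smarcd3, against 14.9% of all windows. A TEAD motif occurred in 2 windows, that of Smarcd3 and the Mef2c window shown, against 13.9% of all windows. Of the Mef2c windows not shown, that at chr13:83523406-83523685 held none of these motifs and that at chr13:83573357-83573636 held 1 E-box. The Smyd1 window held none of these letters, and the E-box of the Vgll2 window began at position -246. Apart from CAGCTG, which is also a CANNTG, no motifs overlapped each other. A match is a string of letters, and binding was not measured.

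The C2C12 libraries held 32795699 to 43827517 counts each, and those of LHCN-M2 held 33030258 to 48546621. Levels below are CPM, read counts scaled by TMM-adjusted library totals, and a gene was called higher or lower when its adjusted p in edgeR's quasi-likelihood test was below 0.05. Replicate 2 of LHCN-M2 day 0 stood apart from its group on the third principal component (-72.5 against 19.1 to 29.9), and replicate 1 of LHCN-M2 day 12 stood apart in several members. Values without them are added for some of the results that rest on them. The skeletal myoblast and myotube markers (9 genes, among them DES, MYOD1 and MYOG) summed to 415 to 439 CPM at day 0, 486 to 516 CPM at day 1 and 1440 to 1574 CPM at day 6 in C2C12, and to 784 to 1070, 2124 to 2475 and 3683 to 3888 CPM at days 0, 1 and 12 in LHCN-M2. PAX7, a satellite cell marker, had 0 counts in every LHCN-M2 library. Since MEF2C, SMARCD3 and SMYD1 are also known from the heart, cardiac markers were read beside them: the 11 genes summed to 20.9 to 25.4 CPM at days 0 and 1 and 23.0 to 30.6 CPM at day 6 in C2C12, and to 0.304 to 0.557, 0.285 to 1.00 and 11.5 to 15.3 CPM at days 0, 1 and 12 in LHCN-M2. In LHCN-M2 the cardiac regulators GATA4, TBX20 and HAND1 had 0 counts in all libraries, and in C2C12 Hand2 and Myl7 did. Of the 2 cardiac markers tested in LHCN-M2, 2 were higher at day 12 against day 0 (27.1% of all genes). Of the 5 tested in C2C12, 2 were higher and 1 lower at day 6 against day 0 (33.1% and 32.3% of all genes). MEF2C is also known from smooth muscle, lymphoid and neural cells. The 7 smooth muscle markers summed to 1683 to 1828 CPM at day 0, 2493 to 3190 CPM at day 1 and 1400 to 1599 CPM at day 6 in C2C12, and to 391 to 627, 398 to 430 and 847 to 926 CPM at days 0, 1 and 12 in LHCN-M2. All 5 tested in C2C12 were lower at day 6 against day 0 (32.3% of all genes). In LHCN-M2, 3 of 6 tested were higher and 1 lower at day 12 against day 0 (27.1% and 27.5%). The 7 lymphoid and myeloid markers summed to at most 1.11 CPM in any C2C12 library and 3.72 CPM in any LHCN-M2 library. The 8 neural markers summed to 284 to 323 CPM at day 0, 371 to 401 CPM at day 1 and 678 to 746 CPM at day 6 in C2C12, with Rbfox3 and Elavl4 at 0 counts, and to 38.3 to 53.7 CPM in LHCN-M2. Of the 5 neural markers tested in C2C12, 3 were higher and 1 lower at day 6 against day 0 (33.1% and 32.3% of all genes). Of the 6 tested in LHCN-M2, 1 was higher and 4 lower at day 12 against day 0 (27.1% and 27.5%). Endothelial markers stayed at or below 1.67 and 20.1 CPM in the lines. The 8 fibroblast and matrix markers summed to 14393 to 16820 CPM at day 0, 14196 to 15474 CPM at day 1 and 10663 to 11138 CPM at day 6 in C2C12, and to 10628 to 11014, 14727 to 17036 and 24386 to 25402 CPM at days 0, 1 and 12 in LHCN-M2. In C2C12, 2 of 7 tested were higher and 3 lower at day 6 against day 0 (33.1% and 32.3% of all genes). In LHCN-M2, 7 of 8 tested were higher and 1 lower at day 12 against day 0 (27.1% and 27.5%). What part any of these moves has in the members' changes was not tested. In bulk RNA, fewer cells of a type and less RNA per cell cannot be told apart.

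In C2C12 the members mostly rose. At day 1 against day 0, 6 of the 9 members tested were higher and none was lower, while 25.9% of all genes tested were higher and 24.5% lower. At day 6 against day 0, 6 were higher and 2 lower, beside 33.1% and 32.3% of all genes. At day 6 against day 1, 5 were higher and 3 lower, beside 32.8% and 28.6% of all genes. In LHCN-M2, 7 members were higher and 1 lower at day 1 against day 0 (23.4% and 23.5% of all genes), 6 were higher and 1 lower at day 12 against day 0 (27.1% and 27.5%), and 5 were higher and 1 lower at day 12 against day 1 (20.9% and 18.8%). The members' median log2 fold change was 0.61 at day 1 and 0.98 at day 6 of C2C12, and 0.50 at day 1 and 1.64 at day 12 of LHCN-M2, beside medians within 0.03 of 0 over all genes tested. With replicate 2 of day 0 and replicate 1 of day 12 left out, an alternative chosen after seeing the data, LHCN-M2 gave 7 higher and 1 lower at day 12 against day 0.

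**Figure D1:**
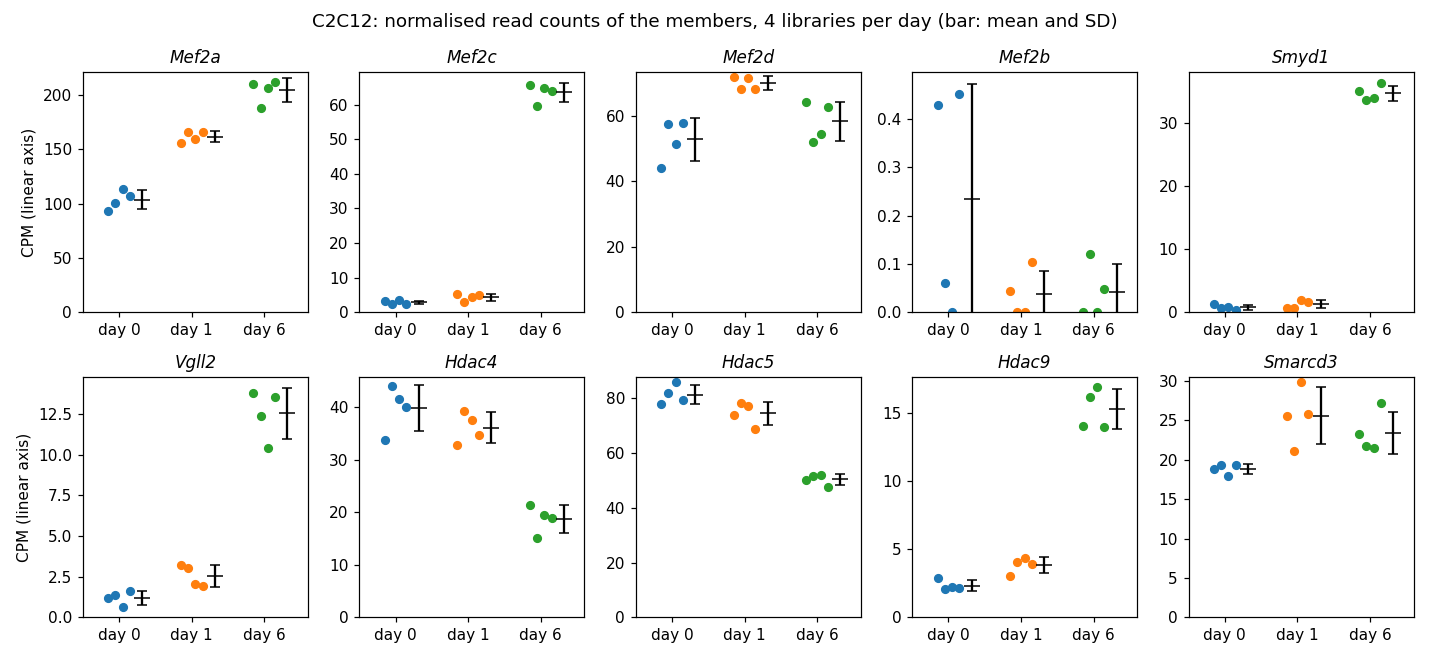
Normalised read counts (CPM, linear axis from 0) of the 10 members in C2C12 by day. Each point is 1 of 4 libraries and the black marks are the mean and SD, cut at 0. Mef2c, Smyd1 and Vgll2 stand far above their earlier levels at day 6 (63.6, 34.8 and 12.5 CPM on average), Hdac4 and Hdac5 are lowest at day 6, and Mef2b stays below 0.5 CPM.

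MEF2C, the MEF2 gene most tied to the onset of muscle differentiation, had the largest fold change of its family at the last day in both lines. In C2C12, Mef2c was at 3.11, 2.47, 3.39 and 2.36 CPM in the 4 libraries of day 0, 5.14, 2.93, 4.40 and 4.84 CPM at day 1 and 65.9, 59.6, 64.8 and 64.1 CPM at day 6. The day 6 libraries lay far above the rest, while days 0 and 1 overlapped. The means were 2.83 ± 0.495, 4.33 ± 0.981 and 63.6 ± 2.75 CPM (SD, n = 4). Mef2c rose 1.53-fold at day 1 (log2 fold change 0.61, SE 0.145, adjusted p = 0.00105) and 22.4-fold at day 6 against day 0 (log2 fold change 4.49, SE 0.135, adjusted p = 7.07e-19). In LHCN-M2, MEF2C (chr5:88717117-88904257, minus strand on GRCh38) was at 19.4, 14.99, 21.3 and 21.02 CPM in the 4 libraries of day 0, 82.5, 90.3, 94.9 and 101 CPM at day 1 and 300.1, 386, 385 and 374 CPM at day 12. No libraries of different days overlapped, and replicate 1 was the low library at day 12. MEF2C was 4.81-fold higher at day 1 (log2 fold change 2.27, SE 0.119, adjusted p = 4.68e-10) and 18.8-fold higher at day 12 (log2 fold change 4.24, SE 0.129, adjusted p = 6.88e-13), and with both libraries that stand apart left out the latter log2 value was 4.24. The antisense gene MEF2C-AS1 held 635 counts in all libraries beside 76590 of MEF2C.

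The day 1 rise of MEF2C was larger in LHCN-M2 than in C2C12. The difference of the log2 fold changes was 1.65 (SE 0.204, adjusted p = 1.7e-07). By the last day that difference was no longer past the threshold (-0.25, SE 0.191, adjusted p = 0.243). The last days are day 6 and day 12 and are not the same time, and so the last-day differences between the lines compare end points and not equal intervals.

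MEF2A and MEF2D, which many tissues express, were already high at day 0. Mef2a in C2C12 was at 93.7, 100.3, 114 and 107 CPM in the 4 libraries of day 0, 156, 166, 159 and 166 CPM at day 1 and 210.3, 189, 207 and 212 CPM at day 6. The 3 days did not overlap, and the rise was 1.56-fold by day 1 (log2 fold change 0.64, SE 0.0583, adjusted p = 8.81e-10) and 1.97-fold by day 6 (log2 fold change 0.98, SE 0.0585, adjusted p = 7.01e-14). MEF2A in LHCN-M2 (chr15:99565417-99716466, plus strand) was at 63.2, 41.4, 69.3 and 73.7 CPM in the 4 libraries of day 0, 106, 105, 106 and 107 CPM at day 1 and 182, 223, 232 and 229.9 CPM at day 12. The days did not overlap here either, with replicate 2 lowest at day 0 and replicate 1 lowest at day 12. MEF2A rose 1.71-fold by day 1 (log2 fold change 0.77, SE 0.138, adjusted p = 2.74e-04) and 3.51-fold by day 12 (log2 fold change 1.81, SE 0.142, adjusted p = 3.3e-08). With both libraries that stand apart left out, these log2 values were 0.65 and 1.76. The last-day response was larger in LHCN-M2 by a log2 difference of 0.83 (SE 0.159, adjusted p = 5.86e-05), while the day 1 difference did not pass (0.13, SE 0.159, adjusted p = 0.499). An antisense neighbour, LYSMD4, overlaps MEF2A in both genomes and held 5.64% and 6.77% as many counts as MEF2A in LHCN-M2 and C2C12.

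MEF2D moved least of the 3 MEF2 genes tested. Mef2d in C2C12 was at 44.1, 57.5, 51.4 and 57.9 CPM in the 4 libraries of day 0, 71.8, 68.1, 71.6 and 68.0 CPM at day 1 and 64.1, 52.1, 54.5 and 62.6 CPM at day 6. Day 1 lay above both other days, whose libraries overlapped. Mef2d rose at day 1 (log2 fold change 0.41, SE 0.0782, adjusted p = 1.04e-04), fell from day 1 to day 6 (log2 fold change -0.26, SE 0.0778, adjusted p = 0.00539) and at day 6 was not past the threshold against day 0 (log2 fold change 0.15, SE 0.0785, adjusted p = 0.103), though it was without replicate 2 of day 6 (adjusted p = 0.0328). MEF2D in LHCN-M2 (chr1:156463727-156500828, minus strand) was at 67.5, 57.2, 63.3 and 66.5 CPM in the 4 libraries of day 0, 85.7, 80.9, 92.8 and 82.2 CPM at day 1 and 80.4, 82.3, 95.6 and 91.9 CPM at day 12. Days 1 and 12 overlapped and both lay above day 0. Its log2 fold change against day 0 was 0.42 at day 1 (SE 0.0825, adjusted p = 5.52e-04) and 0.46 at day 12 (SE 0.0825, adjusted p = 2.18e-04). The last-day difference between the lines (0.31, SE 0.121, adjusted p = 0.0242) was lost when replicate 2 or 4 of C2C12 day 0, replicate 2 of C2C12 day 6 or replicate 3 of LHCN-M2 day 12 was left out (adjusted p up to 0.0587).

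MEF2B, known mainly from lymphoid cells, was at the floor of detection. C2C12 libraries held 36, 6 and 6 counts in all at days 0, 1 and 6, and LHCN-M2 libraries 4, 13 and 3 counts at days 0, 1 and 12. MEF2B is also overlapped on its own strand by a read-through transcript or neighbour. In the mouse annotation GENCODE M21 this is Borcs8, with 6531 counts in all C2C12 libraries beside 48 of Mef2b. In the human table it is BORCS8-MEF2B, with 13 counts in all LHCN-M2 libraries beside 20 of MEF2B. Reads that fall on both genes could be split between them or left uncounted, and the sources used here do not say which.

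**Figure D2:**
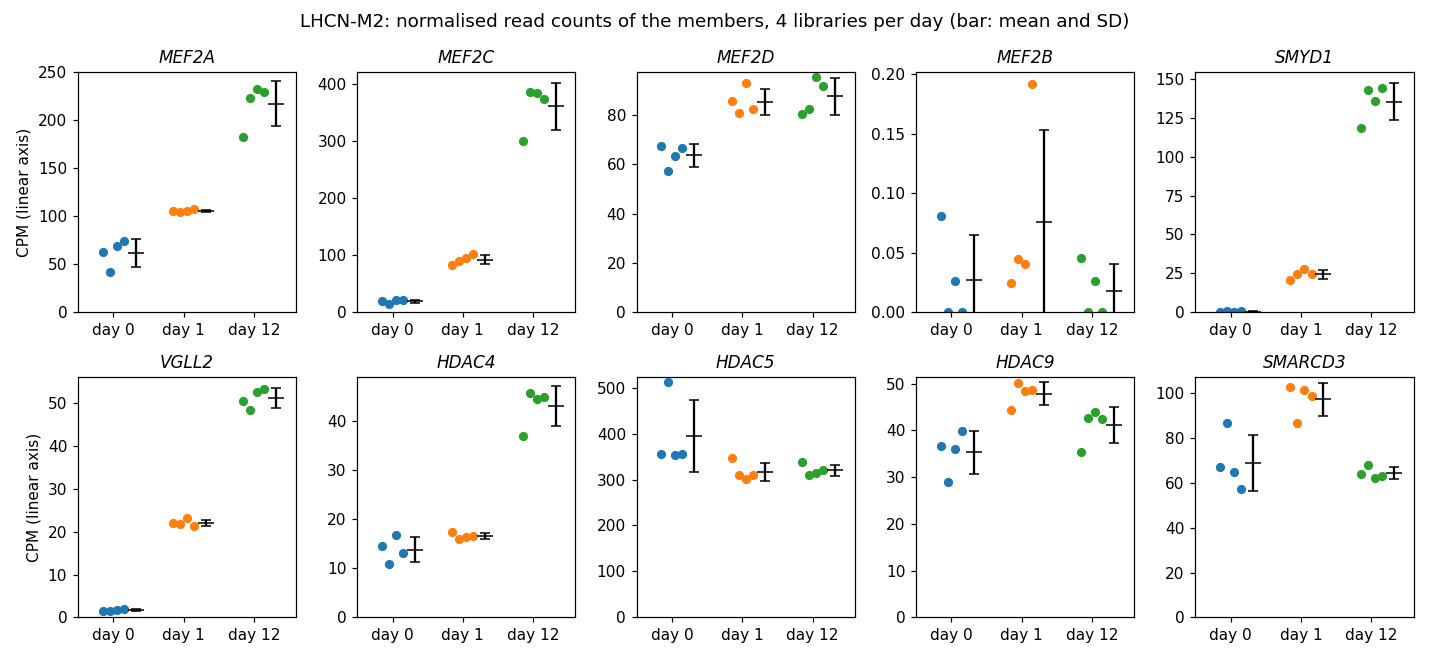
Normalised read counts (CPM, linear axis from 0) of the 10 members in LHCN-M2 by day, drawn as for C2C12. SMYD1, VGLL2 and MEF2C already rise at day 1 (24.3, 22.1 and 92.3 CPM on average), HDAC4 rises at day 12, and 1 library of day 0 stands high for HDAC5 at 512 CPM.

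Set per length, the make-up of the MEF2 family differed between the days. Levels per kb are CPM divided by the gene length of the deposited table, so they rest on its gene models and not on the isoform made. In C2C12 the summed family level was 16.2 ± 1.36 CPM per kb at day 0, 23.0 ± 0.103 at day 1 and 27.8 ± 1.77 at day 6. Mef2c made up 1.12% ± 0.259 of it at day 0 and 14.6% ± 0.484 at day 6, while the share of Mef2d went from 54.2% ± 2.94 to 35.1% ± 1.55. In LHCN-M2 the sum was 20.5 ± 2.95 CPM per kb at day 0, 36.5 ± 1.14 at day 1 and 75.8 ± 7.67 at day 12. There MEF2C went from 7.94% ± 0.271 through 21.5% ± 1.47 to 40.5% ± 1.10 of the family, and MEF2A held 43.1% ± 4.46 at day 0 and 41.3% ± 0.390 at day 12. At day 12 the levels of MEF2A and MEF2C per kb overlapped (31.3 ± 3.38 and 30.7 ± 3.51), whereas at day 6 of C2C12 Mef2a stood at 13.9 ± 0.740 and Mef2c at 4.05 ± 0.175 CPM per kb.

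**Figure D3:**
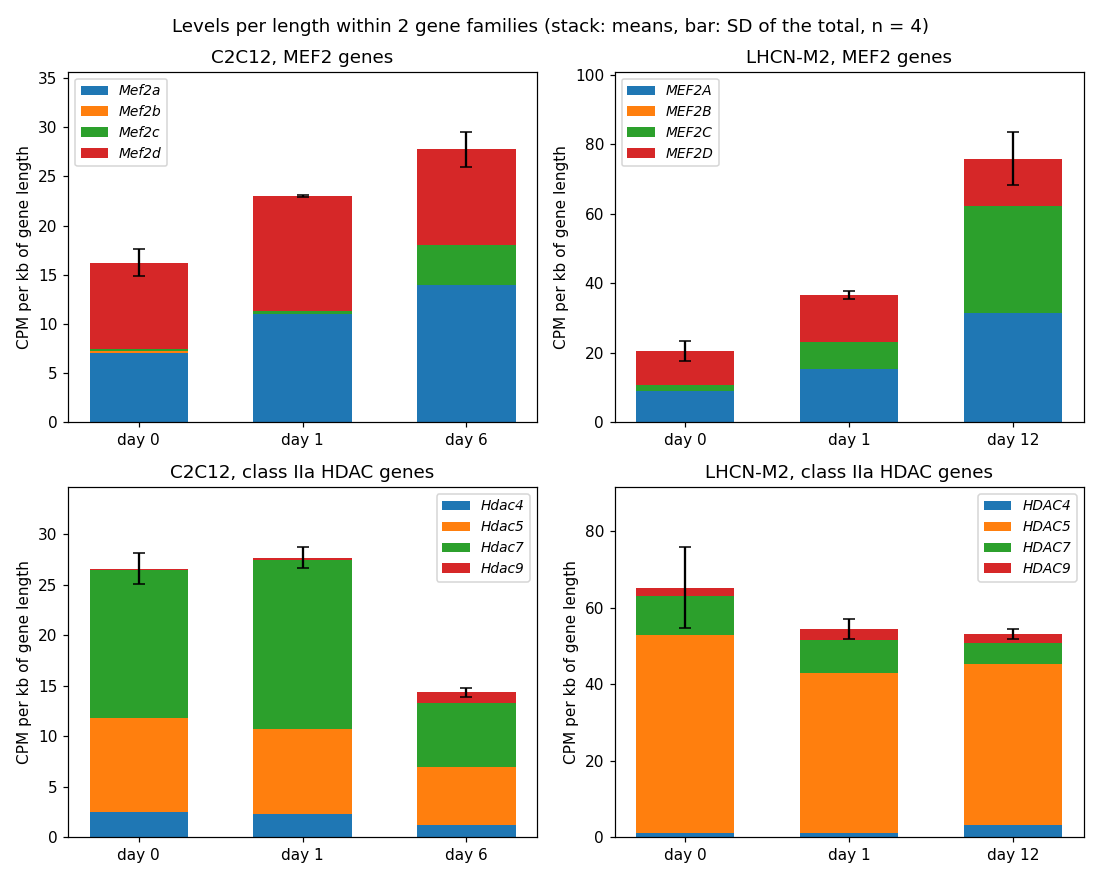
Mean levels per kb of gene length of the MEF2 genes (upper row) and the class IIa HDAC genes (lower row) by day in each line, stacked, with the SD of the family total over 4 libraries. The Mef2c part is visible in C2C12 only at day 6 and in LHCN-M2 from day 0, and the class IIa total is lowest at day 6 in C2C12 (14.4 CPM per kb).

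SMYD1, the muscle methyltransferase, had the largest last-day fold change of the members tested in both lines, from a level near 0. Smyd1 in C2C12 was at 1.26, 0.693, 0.749 and 0.372 CPM in the 4 libraries of day 0, 0.738, 0.721, 1.98 and 1.57 CPM at day 1 and 35.1, 33.7, 34.1 and 36.4 CPM at day 6. Days 0 and 1 overlapped and day 6 lay apart. At day 1 the change did not pass (log2 fold change 0.68, SE 0.382, adjusted p = 0.163), though it did without a filter on low counts or without replicate 1 of day 0 (lowest adjusted p = 0.0262), and at day 6 Smyd1 was 44.7-fold higher than at day 0 (log2 fold change 5.48, SE 0.316, adjusted p = 6.99e-09). The mouse annotation GENCODE M21, which may not be the one used for counting, places the more abundant gene Krcc1 on the opposite strand over part of Smyd1. Krcc1 held 582% as many counts, and without the strand setting reads of the pair cannot be told apart. The log2 fold change of Krcc1 was 0.18 at day 6 (adjusted p = 0.0125). In LHCN-M2, SMYD1 (chr2:88067780-88113387, plus strand) was at 0, 0.424, 0.413 and 0.515 CPM in the 4 libraries of day 0, 20.4, 24.5, 27.7 and 24.7 CPM at day 1 and 119, 143, 136 and 144 CPM at day 12. Replicate 1 of day 0 had 0 counts, where the other libraries of that day had 16, 16 and 22, and the days did not overlap. SMYD1 rose 70.0-fold by day 1 (log2 fold change 6.13, SE 0.301, adjusted p = 2.16e-10) and 389.9-fold by day 12 (log2 fold change 8.61, SE 0.310, adjusted p = 4.49e-12). Both responses were larger than those of C2C12, by log2 differences of 5.45 (SE 0.535, adjusted p = 4.03e-09) at day 1 and 3.12 (SE 0.502, adjusted p = 6e-06) at the last day.

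VGLL2, the TEAD cofactor, rose at every step in both lines. Vgll2 in C2C12 was at 1.16, 1.39, 0.630 and 1.59 CPM in the 4 libraries of day 0, 3.20, 3.03, 2.07 and 1.90 CPM at day 1 and 13.8, 12.4, 10.4 and 13.5 CPM at day 6. The 3 days did not overlap. It was 2.13-fold higher at day 1 (log2 fold change 1.09, SE 0.229, adjusted p = 2.69e-04) and 10.4-fold higher at day 6 (log2 fold change 3.38, SE 0.224, adjusted p = 6.63e-13). VGLL2 in LHCN-M2 (chr6:117265558-117273565, plus strand) was at 1.60, 1.41, 1.76 and 1.87 CPM in the 4 libraries of day 0, 22.0, 21.8, 23.1 and 21.3 CPM at day 1 and 50.6, 48.3, 52.6 and 53.3 CPM at day 12. Again no days overlapped, and the libraries of a day lay close together. The rise was 13.3-fold at day 1 (log2 fold change 3.73, SE 0.103, adjusted p = 6.47e-13) and 30.8-fold at day 12 (log2 fold change 4.94, SE 0.106, adjusted p = 1.92e-14). LHCN-M2 exceeded C2C12 by 2.64 (SE 0.265, adjusted p = 5.99e-09) on the log2 scale at day 1 and by 1.56 (SE 0.255, adjusted p = 7.52e-06) at the last day. Among the VGLL genes per kb, Vgll2 held 3.68% ± 1.20 at day 0 and 33.8% ± 2.66 at day 6 of C2C12, VGLL2 held 4.80% ± 1.20 at day 0 and 43.0% ± 2.64 at day 12 of LHCN-M2, and VGLL1 had 0 counts throughout.

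**Figure D4:**
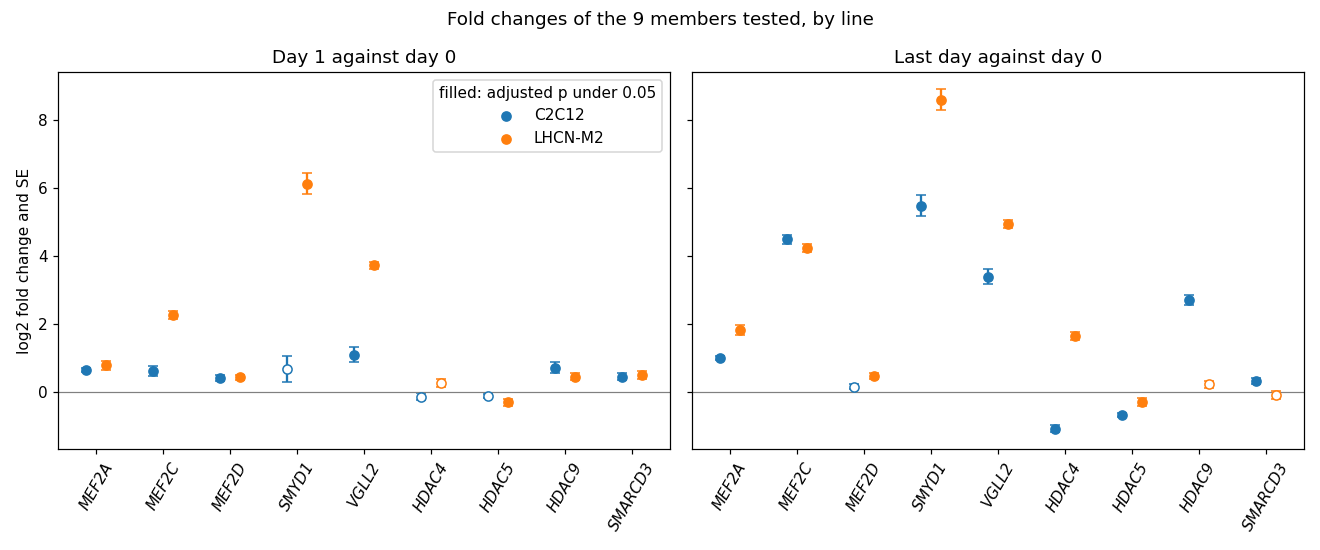
Log2 fold changes with their SE of the 9 members tested, in C2C12 and LHCN-M2, at day 1 (left) and at the last day, 6 or 12 (right), against day 0. Filled points have an adjusted p under 0.05. MEF2C, SMYD1 and VGLL2 are higher in both lines at the last day, HDAC4 lies on opposite sides of 0 (-1.09 and 1.64), and HDAC9 is at 2.70 in C2C12 and 0.22 in LHCN-M2.

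The class IIa deacetylases did not move as a group. HDAC4, which carries the repressor role over MEF2 together with HDAC5, fell in C2C12 and rose in LHCN-M2. Hdac4 in C2C12 was at 33.7, 44.1, 41.6 and 39.98 CPM in the 4 libraries of day 0, 32.8, 39.4, 37.5 and 34.7 CPM at day 1 and 21.5, 15.1, 19.5 and 18.9 CPM at day 6. Days 0 and 1 overlapped and all day 6 libraries were lower. Hdac4 at day 6 was at 0.471 times its day 0 level (log2 fold change -1.09, SE 0.0971, adjusted p = 3.22e-10), and at day 1 it did not pass (log2 fold change -0.14, SE 0.0941, adjusted p = 0.221). HDAC4 in LHCN-M2 (chr2:239048168-239401654, minus strand) was at 14.4, 10.8, 16.9 and 13.1 CPM in the 4 libraries of day 0, 17.4, 15.9, 16.4 and 16.5 CPM at day 1 and 37.0, 45.8, 44.4 and 45.0 CPM at day 12. Day 12 lay above both other days, which overlapped. HDAC4 was 3.12-fold higher at day 12 (log2 fold change 1.64, SE 0.122, adjusted p = 1.87e-08). Under 21 alternatives, which include leaving out replicate 1 of day 12, this log2 value ran from 1.55 to 1.75. At day 1 HDAC4 did not pass (log2 fold change 0.26, SE 0.121, adjusted p = 0.0896). It did with upper-quartile factors (adjusted p = 0.0367) and without replicate 3 of day 0 (adjusted p = 0.0158). The last-day responses differed by 2.73 (SE 0.168, adjusted p = 4.03e-13) on the log2 scale. The day 1 difference (0.40, SE 0.166, adjusted p = 0.0391) was lost under 14 of 33 alternatives.

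HDAC5 was the most abundant member per kb in LHCN-M2 on every day. In C2C12, Hdac5 was at 78.0, 81.9, 85.8 and 79.5 CPM in the 4 libraries of day 0, 73.7, 78.3, 77.1 and 68.9 CPM at day 1 and 50.2, 51.6, 52.1 and 47.7 CPM at day 6. Days 0 and 1 overlapped and day 6 was lower in all libraries. Hdac5 fell by day 6 (log2 fold change -0.69, SE 0.0588, adjusted p = 8.57e-11) and had not passed at day 1 (log2 fold change -0.13, SE 0.0580, adjusted p = 0.0741). HDAC5 in LHCN-M2 (chr17:44076746-44123702, minus strand) was at 355, 512, 354 and 356 CPM in the 4 libraries of day 0, 346, 310.3, 302 and 310.4 CPM at day 1 and 338, 309, 313 and 320.2 CPM at day 12. Replicate 2 of day 0 lay far above the rest, and the later days overlapped each other below day 0. HDAC5 was lower at day 1 (log2 fold change -0.31, SE 0.108, adjusted p = 0.0264) and at day 12 (log2 fold change -0.30, SE 0.108, adjusted p = 0.0285). Without replicate 2 of day 0 these log2 values were -0.14 (adjusted p = 0.0283) and -0.14 (adjusted p = 0.0283). The day 1 call was lost under 5 of 21 alternatives and the day 12 call under 6 of 21. The former was lost without replicate 2, 3 or 4 of day 1, and the latter without replicate 3 of day 1 or replicate 2, 3 or 4 of day 12. The last-day fall was larger in C2C12 (LHCN-M2 minus C2C12 0.39, SE 0.124, adjusted p = 0.00732).

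HDAC9, whose transcripts include a shorter form without the deacetylase domain that is known from muscle, rose in C2C12 at both later days and in LHCN-M2 at day 1. Hdac9 in C2C12 was at 2.93, 2.08, 2.22 and 2.12 CPM in the 4 libraries of day 0, 3.06, 4.04, 4.37 and 3.91 CPM at day 1 and 14.1, 16.2, 16.9 and 14.0 CPM at day 6. Its 3 days did not overlap, with replicate 1 the high library of day 0. Hdac9 rose 1.64-fold by day 1 (log2 fold change 0.71, SE 0.158, adjusted p = 4.88e-04) and 6.51-fold by day 6 (log2 fold change 2.70, SE 0.156, adjusted p = 3.4e-14). HDAC9 in LHCN-M2 (chr7:18086949-19002416, plus strand) was at 36.6, 28.9, 35.9 and 39.9 CPM in the 4 libraries of day 0, 44.4, 50.1, 48.4 and 48.6 CPM at day 1 and 35.4, 42.6, 44.0 and 42.5 CPM at day 12. Day 1 lay above both other days, which overlapped. HDAC9 rose at day 1 (log2 fold change 0.44, SE 0.102, adjusted p = 0.0024), and the day 12 value did not pass (log2 fold change 0.22, SE 0.102, adjusted p = 0.0839). It did pass under 4 alternatives: with upper-quartile factors (adjusted p = 0.0457), without replicate 4 of day 0 (adjusted p = 0.0423), without replicate 1 of day 12 (adjusted p = 0.0332) and with both libraries that stand apart left out (adjusted p = 0.00963). The last-day response was smaller in LHCN-M2 than in C2C12 (LHCN-M2 minus C2C12 -2.48, SE 0.171, adjusted p = 3.39e-12). Counts per gene do not separate the isoforms.

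HDAC7, the class IIa gene outside the 10, completes the class when levels are set per length. The summed class IIa level in C2C12 was 26.6 ± 1.56 CPM per kb at day 0 and 14.4 ± 0.472 at day 6, with Hdac7 at 55.1% ± 2.45 and then 44.6% ± 0.962 of it. Hdac9 went from 0.598% ± 0.139 to 7.18% ± 0.643 of the class. In LHCN-M2 the sum was 65.3 ± 10.5 CPM per kb at day 0 and 53.2 ± 1.28 at day 12. The day 0 libraries ran from 59.7 to 81.1, with replicate 2, the high HDAC5 library, at the top, and those of day 12 from 51.9 to 54.8. HDAC5 held 79.0% ± 2.63 and 79.0% ± 1.24 of the sum. HDAC7 went from 16.1% ± 1.43 to 10.4% ± 0.0544, and HDAC4 from 1.63% ± 0.469 to 6.06% ± 0.695.

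SMARCD3, the SWI/SNF subunit that partners MyoD, had its highest mean at day 1 in both lines. Smarcd3 in C2C12 was at 18.8, 19.3, 18.0 and 19.4 CPM in the 4 libraries of day 0, 25.6, 21.1, 29.9 and 25.8 CPM at day 1 and 23.3, 21.7, 21.5 and 27.2 CPM at day 6. Day 0 lay below both later days, which overlapped. Smarcd3 rose at day 1 (log2 fold change 0.44, SE 0.0969, adjusted p = 4.37e-04) and was still higher at day 6 (log2 fold change 0.31, SE 0.0974, adjusted p = 0.00637), a call that was lost without replicate 4 of day 6 (adjusted p = 0.0514). SMARCD3 in LHCN-M2 (chr7:151238764-151277896, minus strand) was at 67.3, 86.8, 64.7 and 57.3 CPM in the 4 libraries of day 0, 103, 86.6, 101 and 98.7 CPM at day 1 and 64.2, 68.0, 62.3 and 63.3 CPM at day 12. Replicate 2 of day 0 overlapped day 1, and all day 12 libraries lay below day 1. SMARCD3 rose at day 1 (log2 fold change 0.50, SE 0.108, adjusted p = 0.00136), fell from day 1 to day 12 (log2 fold change -0.60, SE 0.108, adjusted p = 4.13e-04), and at day 12 did not differ past the threshold from day 0 (log2 fold change -0.10, SE 0.108, adjusted p = 0.461). With both libraries that stand apart left out, the log2 value at day 1 was 0.65 (adjusted p = 4.36e-10). The last-day difference between the lines was -0.41 (SE 0.152, adjusted p = 0.0189). This call was lost with upper-quartile factors, without replicate 4 of C2C12 day 6 and with both LHCN-M2 libraries that stand apart left out (-0.26, adjusted p = 0.0731). In both genomes SMARCD3 overlaps the antisense gene CHPF2, which held 258% as many counts in LHCN-M2 and 222% in C2C12, and the strand setting of the counting is not given in the sources used here, so reads of the pair cannot be told apart. CHPF2 had log2 fold changes of 0.082 (adjusted p = 0.335) at day 1 and -0.48 (adjusted p = 1.76e-05) at day 12 in LHCN-M2, and Chpf2 of 0.47 (adjusted p = 6.07e-06) and 0.14 (adjusted p = 0.1) at days 1 and 6 in C2C12. Among the 3 SMARCD genes per kb, SMARCD3 went from 32.5% ± 3.81 to 49.1% ± 1.55 in LHCN-M2 and from 12.6% ± 0.436 to 19.9% ± 2.57 in C2C12. The summed level fell, from 40.7 ± 3.02 to 25.3 ± 0.721 CPM per kb in LHCN-M2 and from 29.3 ± 0.997 to 23.1 ± 1.02 in C2C12. SMARCD3 itself was at 13.3 ± 2.42 and then 12.4 ± 0.481 CPM per kb in LHCN-M2, and at 3.68 ± 0.125 and then 4.58 ± 0.516 in C2C12.

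Set side by side, 4 members had a larger day 1 response in LHCN-M2 and none a smaller one (MEF2C, SMYD1, VGLL2 and HDAC4), beside 26.0% and 34.0% of the 10953 genes tested. At the last day 6 members were higher and 2 lower in LHCN-M2 relative to C2C12 (HDAC9 and SMARCD3 lower), beside 31.2% and 39.9% of genes. These counts compare fold changes, and levels were not compared between the lines. Within a line, the order of levels per kb also changed. In C2C12 at day 0 the highest members were Hdac5 (9.26 ± 0.389 CPM per kb), Mef2d (8.81 ± 1.08) and Mef2a (7.06 ± 0.587), each overlapping its neighbour, and Mef2c, Smyd1, Mef2b and Hdac9 overlapped at the bottom, between 0.158 and 0.180. At day 6 the order ran Mef2a, Mef2d, Smyd1 (7.66 ± 0.264) and Vgll2 (7.59 ± 0.941), of which the last pair overlapped. In LHCN-M2 at day 0 HDAC5 (51.8 ± 10.3) was followed by SMARCD3 (13.3 ± 2.42), neither overlapping its neighbour. At day 12 HDAC5 (42.0 ± 1.65) stood apart above MEF2A, MEF2C and SMYD1 (29.5 ± 2.55), which overlapped in turn.

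Genes known as MEF2 targets in muscle mostly rose. Of 29 target genes of muscle (contractile, metabolic and early response genes), 27 were tested in each line, and 24 were higher and none lower at day 6 of C2C12 (33.1% and 32.3% of all genes), with a median log2 fold change of 5.26 where the median of all genes was -0.028. At day 1 of C2C12, 20 were higher (25.9% of all genes) and 1 lower (24.5%), the cytochrome oxidase subunit gene Cox6a2. In LHCN-M2, 21 were higher (23.4% of all genes) and 2 lower (23.5%) at day 1, the transcription factors JUN and KLF2, and these 3 are named after their values were seen. LHCN-M2 had 23 higher and 1 lower at day 12 (27.1% and 27.5% of all genes), with a median of 7.17, or 7.13 with genes at 0 counts on day 0 set to their bound against 3 counts over the group. Acta1, skeletal alpha-actin, went from 2.80 ± 0.513 CPM at day 0 to 883 ± 50.5 CPM at the last day (log2 fold change 8.30, SE 0.2503, adjusted p = 3.78e-10) in C2C12. Actn2, the Z-disc actinin, had 0 counts at day 0 of C2C12 and 7.41 ± 0.346 CPM at day 6, at least 354-fold higher. MYOG, the myogenic factor myogenin, had 0 counts at day 0 of LHCN-M2, 79.8 ± 9.78 CPM at day 1 and 362 ± 16.4 CPM at day 12, at least 18896-fold higher. KLHL40, a sarcomere stabilising protein, likewise had 0 counts at day 0 and 24.9 ± 2.80 CPM at day 12, at least 1310-fold higher. MEG3, a long noncoding RNA of the Dlk1-Dio3 locus, was the gene that fell at day 12 (log2 fold change -0.69, adjusted p = 3.29e-05). Such bounds cover counting error only.

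Signal input genes, the kinases and phosphatases that act on MEF2 and the class IIa deacetylases, moved in both directions. Of 28 tested, 11 were higher and 12 lower at day 6 of C2C12, where 33.1% of all genes tested were higher and 32.3% lower. At day 12 of LHCN-M2, 10 were higher and 9 lower, where 27.1% of all genes were higher and 27.5% lower. In C2C12, Camk2a, a calcium/calmodulin-dependent kinase, went from 1.55 ± 0.228 CPM at day 0 to 14.7 ± 1.08 CPM at the last day (log2 fold change 3.25, SE 0.159, adjusted p = 1.11e-15), and Camk1g, of the same kinase class, from 4.59 ± 0.673 CPM at day 0 to 22.3 ± 2.12 CPM at the last day (log2 fold change 2.28, SE 0.109, adjusted p = 7.64e-16). Camk1d fell (log2 fold change -2.22, adjusted p = 2.15e-17), as did Prkd2, a protein kinase D that phosphorylates class IIa HDACs (log2 fold change -0.95, adjusted p = 4.64e-08). Rcan1, a feedback inhibitor of calcineurin, rose (log2 fold change 1.32, adjusted p = 1.95e-11). In LHCN-M2, RCAN2 of the same family went from 5.95 ± 0.535 CPM at day 0 to 24.9 ± 2.41 CPM at the last day (log2 fold change 2.06, SE 0.111, adjusted p = 4.37e-10), PRKAA2, a catalytic subunit of AMP-activated kinase, rose (log2 fold change 2.34, adjusted p = 2.9e-07), and MAPK7 (ERK5), a MEF2 kinase, fell (log2 fold change -1.15, adjusted p = 1.89e-07). Among the calcium/calmodulin-dependent kinases of LHCN-M2, CAMK2B rose (log2 fold change 4.32, adjusted p = 3.54e-06) and CAMK4 fell (log2 fold change -1.58, adjusted p = 1.56e-04).

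Of the 22 co-repressor partners, 22 were tested in C2C12 and 21 in LHCN-M2. In C2C12, 7 were higher and 8 lower at day 6, beside 33.1% and 32.3% of all genes (median log2 fold change of the list -0.10, of all genes -0.028). In LHCN-M2, 5 were higher and 12 lower at day 12, beside 27.1% and 27.5% of all genes (median log2 fold change of the list -0.55, of all genes -0.0096). Hdac7 fell in C2C12 from 99.1 ± 9.21 CPM at day 0 to 43.2 ± 1.70 CPM at the last day (log2 fold change -1.20, SE 0.0638, adjusted p = 6.72e-15). HDAC7 was also lower at the last day in LHCN-M2, at 103 ± 6.61 CPM at day 0 and 54.7 ± 1.30 CPM at day 12. In C2C12, Ywhah and Ywhaq, 14-3-3 proteins of the kind that retain phosphorylated class IIa HDACs in the cytoplasm, rose (log2 fold change 1.07, adjusted p = 7.29e-16, and log2 fold change 0.92, adjusted p = 7.38e-13). In LHCN-M2 another 14-3-3 gene, YWHAG, rose (log2 fold change 0.69, adjusted p = 4.21e-06) and YWHAZ fell (log2 fold change -0.99, adjusted p = 5.02e-09). BCL6, a repressor that recruits such complexes, was higher in both lines (log2 fold change 0.67, adjusted p = 7.11e-06 in LHCN-M2, and log2 fold change 0.78, adjusted p = 3.13e-08 in C2C12). HDAC10, a class IIb deacetylase, was lower in LHCN-M2 (log2 fold change -1.07, adjusted p = 0.0159), a call lost without replicate 2 of day 0 (log2 fold change -0.65, adjusted p = 0.0958) and with both libraries that stand apart left out (log2 fold change -0.55, adjusted p = 0.2).

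Among the other SWI/SNF subunits, 4 were higher and 16 lower of 25 tested at day 6 of C2C12 (median log2 fold change -0.40), while 33.1% of all genes were higher and 32.3% lower. At day 12 of LHCN-M2, 4 were higher and 15 lower of 26 tested (median log2 fold change -0.31), while 27.1% of all genes were higher and 27.5% lower. Phf10 (BAF45A), a subunit of the PBAF form of the complex, fell in C2C12 from 197 ± 6.82 CPM at day 0 to 62.4 ± 1.06 CPM at the last day (log2 fold change -1.66, SE 0.0570, adjusted p = 6.49e-19), and rose in LHCN-M2 (log2 fold change 0.86, adjusted p = 8.86e-08). Actl6a (BAF53A) rose in C2C12 (log2 fold change 0.91, adjusted p = 5.35e-13) and fell in LHCN-M2 (log2 fold change -0.99, adjusted p = 2.37e-08). DPF1 fell in LHCN-M2 from 11.4 ± 3.11 CPM at day 0 to 1.65 ± 0.463 CPM at the last day (log2 fold change -2.78, SE 0.248, adjusted p = 1.44e-07).

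The 9 genes of the TEAD list are the TEAD factors, the VGLL genes other than VGLL2, and the TEAD co-activators YAP1 and WWTR1. Of these, 8 were tested in each line. In C2C12, 2 were higher and 6 lower at day 6 (all genes 33.1% and 32.3%), and in LHCN-M2, 5 were higher and 1 lower at day 12 (all genes 27.1% and 27.5%). TEAD4, the TEAD factor of muscle differentiation, was higher in both lines, in C2C12 from 4.81 ± 0.857 CPM at day 0 to 14.4 ± 1.18 CPM at the last day (log2 fold change 1.58, SE 0.146, adjusted p = 3.98e-10) and in LHCN-M2 from 12.7 ± 2.43 CPM at day 0 to 81.8 ± 3.62 CPM at the last day (log2 fold change 2.69, SE 0.122, adjusted p = 6.06e-11). Tead1 fell in C2C12 (log2 fold change -0.78, adjusted p = 6.56e-11). WWTR1 (TAZ) rose in LHCN-M2 (log2 fold change 1.30, adjusted p = 7.18e-10), and YAP1, its relative, fell (log2 fold change -0.49, adjusted p = 8.13e-04).

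Of 8 SMYD family members and partners, 5 were higher and 1 lower at day 6 of C2C12 (all genes 33.1% and 32.3%), and 3 higher and 4 lower at day 12 of LHCN-M2 (all genes 27.1% and 27.5%). The 1 lower became 2 without replicate 3 of C2C12 day 0 or replicate 2 of day 6. UNC45B, the muscle myosin chaperone, had 0 counts at day 0 of both lines. It reached 12.2 ± 0.462 CPM at day 6 of C2C12, at least 582-fold higher, and 204 ± 14.1 CPM at day 12 of LHCN-M2, at least 10633-fold higher. HSP90AA1, its chaperone partner, rose in C2C12 (log2 fold change 1.36, adjusted p = 5.95e-17) and fell in LHCN-M2 (log2 fold change -0.64, adjusted p = 6.23e-07). SMYD2 fell in LHCN-M2 (log2 fold change -0.71, adjusted p = 9.66e-06). Of the MEF2 co-activators, 1 was higher and 8 lower of 13 tested at day 6 of C2C12, beside 33.1% and 32.3% of all genes, and 2 were higher without replicate 3 of day 0. At day 12 of LHCN-M2, 3 were higher and 4 lower of 14 tested, beside 27.1% and 27.5%. KAT2B (PCAF), an acetyltransferase that works with MyoD and MEF2, was higher in both (log2 fold change 0.25, adjusted p = 5.82e-04 in C2C12, and log2 fold change 0.82, adjusted p = 2.49e-05 in LHCN-M2), and PPARGC1A, a co-activator of oxidative metabolism, rose in LHCN-M2 (log2 fold change 1.94, adjusted p = 2.23e-04), with a log2 fold change of 2.66 when both libraries that stand apart were left out.

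The genes whose log2 CPM ran most like that of Mef2c over the 12 C2C12 libraries were Myoz2, Ostm1, Ivns1abp, Bin1 and Srl, with Pearson r between 0.995 and 0.997 among 14043 genes compared. For MEF2C in LHCN-M2 they were NCAM1, NUAK1, IGFBP5, ITGA11 and CARNS1, with r between 0.997 and 0.999 among 14793 genes. For SMYD1 they were Trim72, Cycs, Prkar1a, Rps19bp1 and Itga4 in C2C12 (r from 0.987 to 0.990), and HIST1H4H, TSPAN33, VSIR, SRPK3 and ANKRD33B in LHCN-M2 (r from 0.993 to 0.996). The 12 points are 3 days of 4 libraries each, so r measures mainly the steps between days and is given as a description. Among the members themselves, r of MEF2C was 0.986 with SMYD1 and -0.960 with HDAC4 in C2C12, and 0.963 and 0.909 with the same genes in LHCN-M2.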

How the data were processed

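RNA-seq libraries were aligned and counted by the authors, and the submitters' processing notes list fastp, HISAT2 (version 2.2.1), StringTie (version 2.2.3) and featureCounts (version 2.0.6) with the builds mm10 and GRCh38. The deposited values are raw read counts per gene, which were used as deposited. The sources used here do not give the strand setting or annotation release, and the labels mention a strand-specific option without saying that it was used. Coordinates of human genes came from the deposited table (GRCh38). Overlaps between mouse genes came from GENCODE M21. Of 50559 symbols that it shares with the deposited mouse table, 2.74% had the same start and end in both. For each line, all 12 libraries were fitted together with edgeR 4.0.16 in R 4.3.3 (filterByExpr, TMM factors, robust quasi-likelihood test), and 17065 C2C12 and 18214 LHCN-M2 genes were tested. Adjusted p-values are Benjamini-Hochberg over all genes tested. Differences between the lines are interaction terms over 24 libraries for 10953 genes matched by symbol. Same-numbered libraries did not deviate together (r between -0.10 and 0.091 over genes), so the main fit has no block. Alternatives were DESeq2 1.42.0, other factors, filters and sample sets, and leaving out each library. Members and gene lists were chosen with earlier results of these data known. Named from each list were up to 3 genes with the largest rise and fall at the last day (at least 1 CPM in a group), of which the text gives a part, and the 5 genes most like MEF2C and SMYD1.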

Additional observations from a re-analysis of the deposited data

Results flagged for a closer look

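In 4 of the 54 groups of 4 libraries looked at, 1 library lay far from the other libraries of its day by Dixon's criterion, where chance gives about 1 group in 20. Hdac9 was at 2.93 CPM in replicate 1 of C2C12 day 0, above the other libraries at 2.08 to 2.22. In LHCN-M2 day 12, replicate 1 was the low library for MEF2C at 300.1 CPM and for HDAC4 at 37.0 CPM. HDAC5 was at 512 CPM in replicate 2 of LHCN-M2 day 0, where the other libraries held 354 to 356. The cause was not tested.

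Responses that differed between the lines are given as LHCN-M2 minus C2C12 on the log2 scale, each with an adjusted p under 0.05 in edgeR's test of the interaction. At day 1 the difference was 1.65 for MEF2C, 5.45 for SMYD1, 2.64 for VGLL2 and 0.40 for HDAC4. At the last day, 6 or 12, it was 0.83 for MEF2A, 0.31 for MEF2D, 3.12 for SMYD1, 1.56 for VGLL2, 2.73 for HDAC4, 0.39 for HDAC5, -2.48 for HDAC9 and -0.41 for SMARCD3. Species, line and, at the end, the number of days differ together between these groups and cannot be told apart.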

How the results depend on the processing

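Alternatives with other normalisation factors, filters, tests and sample sets left the counts of members called higher within 1.5 times of those given. Counts of members called lower, which are small, moved more. With upper-quartile factors, 1 member was lower at day 1 of C2C12 (main 0), 0 at day 1 of LHCN-M2 (main 1) and 1 in the last-day difference (main 2). With only the groups compared in the fit, LHCN-M2 gave 0 lower at day 1 and at day 12 against day 0 (main 1) and 2 at day 12 against day 1 (main 1), and DESeq2 gave 0 lower at day 12 against day 0. Leaving out both LHCN-M2 libraries that stand apart gave 1 lower in the last-day difference. Leaving out 1 library at a time gave 0 to 1 lower for LHCN-M2 day 1 against day 0, 0 to 1 for day 12 against day 0, 1 to 2 for day 12 against day 1, 0 to 1 for the day 1 difference and 1 to 2 for the last-day difference. Signs turned for values near 0 that were not called. With both libraries left out, SMARCD3 at day 12 against day 0 of LHCN-M2 was 0.057 (main -0.099), HDAC5 at day 12 against day 1 was -0.0146 (main 0.014) and MEF2D in the day 1 difference was -0.00392 (main 0.018). Upper-quartile factors gave -0.00101 for MEF2D (main 0.035) and -0.022 for HDAC5 at day 12 against day 1. With 1 library left out, the ranges were -0.18 to 0.038 for SMARCD3 at day 12 against day 0, -0.01499 to 0.057 for HDAC5 and -0.0081 to 0.073 for MEF2D at day 12 against day 1, and -0.068 to 0.055 for MEF2D, -0.068 to 0.20 for SMARCD3 and -0.0032 to 0.22 for MEF2A in the day 1 difference. The cause was not tested.

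With the replicate number as a block, the counts of members were those of the main fit, except the day 1 difference, with 3 members higher against 4 (HDAC4 at 0.41, adjusted p = 0.0595). A library correlated best with its own number in 3 of 12 C2C12 and 5 of 12 LHCN-M2 cases. Of the gene list counts quoted for the last day against day 0, the SMYD list of C2C12 went from 1 to 2 lower with upper-quartile factors and without replicate 3 of day 0 or replicate 2 of day 6, and the co-activators of C2C12 from 1 to 2 higher without replicate 3 of day 0. Upper-quartile factors shifted the median of all genes in the day 1 difference from -0.09 to 0.02, and DESeq2 that of the last-day difference from -0.13 to -0.01. MEF2B, at 48 and 20 counts in all, is below what this depth can compare.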
